A study of Danio rerio with 6 samples.

Results

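The 6 clock activator genes arntl1a, arntl1b, arntl2, clocka, clockb and npas2 were examined in sorted endocardial cells of myd88+/+ and myd88-/- zebrafish. They were taken by gene symbol from a table of 17835 genes, and all 6 were listed and had a mean value high enough to be tested. The group was selected on earlier results of this same genotype contrast, so the levels and fold changes of its members are given as a description and carry no p-value. Endocardial cells, which line the inside of the heart, had been sorted by fluorescence from cryoinjured ventricles at 96 hours post cryoinjury (hpci). All fish were adults of the AB strain and carried the enhancer trap ET(krt4:EGFP)sqet33-1A, in which EGFP marks the endocardium. The mutants carried the hu3568 allele of myd88, which encodes an adaptor of Toll-like and interleukin-1 receptors, and the controls were their myd88+/+ siblings. There were 3 libraries per genotype, each from a pool of 4 ventricles, so a library is a mean over fish, and the study used females and males. The fish were kept in a light-dark cycle, and the sources used here give no time of day of collection and no sequencing run, so neither could be set against genotype.

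The members encode the positive arm of the circadian clock. CLOCK and BMAL proteins are bHLH-PAS transcription factors, which carry a basic helix-loop-helix domain for DNA binding and PAS domains for pairing with a partner. A CLOCK protein pairs with a BMAL protein, and the pair binds E-box elements and switches on the period and cryptochrome genes, whose products in turn repress the pair. NPAS2 is a paralogue of CLOCK that can take its place beside BMAL in mammals. A further loop acts on the activators themselves, in which REV-ERB nuclear receptors (nr1d genes) repress and ROR nuclear receptors raise the transcription of Bmal1 in mammals. In zebrafish, peripheral tissues hold clocks that can be set directly by light. The arntl genes are the zebrafish bmal genes, and arntl1a and arntl1b are duplicates of one ancestral gene, as are clocka and clockb.

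Values were normalised read counts that had been rounded to whole numbers, and they summed to 11136966 to 11847536 per library. The targeted gene, myd88, read 1305, 1149 and 1070 in myd88+/+ replicates 1 to 3 and 817, 575 and 849 in the mutants, a log2 fold change of -0.67 ± 0.17 (SE) that did not pass the criteria used here (limma, adjusted p = 0.150). The myd88-/- replicate 3 library stood apart from the others. Its mean rank correlation with its own genotype was 0.969 against 0.971 with the other, and 251 genes in it were over 2-fold above each other library, against 13 to 36 in the remaining libraries. Its krt4 value was 44876 against 12266 to 23289 in the others. All 16 endothelial markers were listed, with sums of 85143 to 94795 in myd88+/+ and 73057 to 110023 in myd88-/-. The sum of 110023 is that of myd88-/- replicate 3 and includes its krt4 value. The 9 listed macrophage and neutrophil markers of 13, among which mpx and lyz were not listed, summed to 1578 to 3661 and 922 to 2162. Of these 9 genes, 7 had a log2 fold change below 0 and 2 above, with a median of -0.62. Epicardial and fibroblast markers, 10 of 10 listed, summed to 55365 to 61870 in myd88+/+ and to 29428, 42869 and 56181 in myd88-/- replicates 1 to 3. Most of each sum was the single gene dcn, at 51293, 45907 and 43927 in myd88+/+ and 23349, 33886 and 46830 in myd88-/-. Of the 10 genes, 6 had a log2 fold change below 0 and 4 above, so the sums do not describe the list as a whole. In myd88-/- replicate 3, tcf21 read 111 against 19 to 76 in the other libraries, and tbx18 read 374 against 104 to 156. There, lum read 1183 against 264 to 588 and pdgfra 1468 against 670 to 1058. The remaining genes of the list did not have their highest value in that library. Cardiomyocyte markers, 9 of 10 listed, summed to 14024 to 21190 and 14329 to 20783. Blood cell markers, 7 of 8 listed, summed to 52 to 480 in myd88+/+ and 256 to 695 in myd88-/-, with 7 of 8 entries above 0 (1 symbol has 2 entries) and a median log2 fold change of 1.22. None of the genes on these 5 lists passed the criteria in the limma fit. At an unadjusted p under 0.05, 3 endothelial and 3 macrophage and neutrophil markers were lower, and 3 endothelial markers higher. Of all 16383 genes tested, 2157 reached that level in either direction. The part of these cells in the results was not tested. For myd88-/- replicate 3, values from refits without it are given below. In bulk libraries such as these, fewer cells of a type and less RNA per cell cannot be told apart.

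Of the members, npas2 differed most between the genotypes. The gene lies on chromosome 5 (danRer11, 22791686 to 22830724, plus strand). Its normalised count was 316, 284 and 200 in myd88+/+ replicates 1, 2 and 3 and 42, 33 and 58 in myd88-/- replicates 1, 2 and 3. The 3 mutant libraries were all below the 3 controls, and the highest mutant was 3.45-fold below the lowest control. The control mean of 267 ± 59.9 (SD, n = 3) was 6.02-fold above the mutant mean of 44.3 ± 12.7. On the scale of log2(value + 1), which was used for every log2 fold change below, the difference was -2.57 ± 0.26 (SE). Of 16383 genes tested, npas2 had the 24th largest decrease. Leaving out any one library moved the log2 fold change between -2.78 and -2.38, and the value without myd88-/- replicate 3 was the lowest of these.

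The largest increase among the members was that of arntl1a, on chromosome 25 (17893784 to 17918810, minus strand). It read 233, 192 and 224 in the myd88+/+ libraries and 418, 432 and 352 in the myd88-/- libraries. The genotypes did not overlap, and the smallest ratio of a mutant to a control library was 1.51 and the largest 2.25. The mutant mean of 401 ± 42.7 (SD, n = 3) was 1.85-fold above the control mean of 216 ± 21.5, with a log2 fold change of 0.89 ± 0.15 (SE). Ranked by log2 fold change, arntl1a had the 411th largest rise of 16383 genes. Such ranks, that of npas2 included, take no account of the spread between libraries. Genes with low counts can thus rank above it, such as abcc8b, 85th with a mean of 7.17 and not called. The log2 fold change of arntl1a was 0.80 to 0.98 with single libraries left out. Its sign could not change in these refits, because the genotypes did not overlap. The gene met the criteria in only 1 of these 6 refits, the one without myd88-/- replicate 3.

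Relative to their means, the other arntl genes varied more between libraries of one genotype than arntl1a did, arntl2 only slightly so in the controls. The duplicate of arntl1a, arntl1b, lies on chromosome 7 (66048102 to 66105828, plus strand) and read 80, 95 and 139 in myd88+/+ and 142, 128 and 74 in myd88-/-. Its genotypes overlapped completely, since the lowest of all 6 libraries was myd88-/- replicate 3 and the highest was myd88-/- replicate 1. The means were 105 ± 30.7 and 115 ± 35.9 (SD, n = 3), and the log2 fold change was 0.12 ± 0.30 (SE). Leaving out myd88-/- replicate 3 gave 0.40 and leaving out myd88-/- replicate 1 gave -0.06, so its direction depended on single libraries.

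For arntl2, the BMAL2 gene on chromosome 18 (15569627 to 15610856, minus strand), the counts were 75, 59 and 64 in myd88+/+ and 107, 116 and 61 in myd88-/-. Replicates 1 and 2 of the mutants lay above every control, and replicate 3 lay within the control range. The means were 66.0 ± 8.19 and 94.7 ± 29.5 (SD, n = 3). The log2 fold change was 0.47 ± 0.27 (SE), and it moved to 0.75 when myd88-/- replicate 3 was left out and to 0.30 when myd88-/- replicate 2 was. In myd88-/- replicate 3, each of the 3 arntl genes had its lowest value among the mutants.

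Both clock genes were at similar levels in both genotypes. The higher of the pair in counts, clockb, lies on chromosome 1 (19433004 to 19466453, plus strand) and read 163, 178 and 188 in myd88+/+ and 174, 154 and 203 in myd88-/-. Its means were 176 ± 12.6 and 177 ± 24.6 (SD, n = 3), a log2 fold change of 0.00 ± 0.17 (SE), and mutant libraries were both the lowest and the highest of the 6. Scaling the libraries to equal totals gave 0.06, and leaving out single libraries gave -0.10 to 0.09. For clocka, on chromosome 20 (22067337 to 22176003, plus strand), the counts were 22, 18 and 25 in myd88+/+ and 29, 23 and 19 in myd88-/-, with means of 21.7 ± 3.51 and 23.7 ± 5.03. Its log2 fold change was 0.11 ± 0.32 (SE) and -0.04 to 0.26 with single libraries left out. With 3 libraries per genotype, a difference several times the size of these SEs, in either direction, could have missed the criteria. The gene myo10, named below, did not pass them at 0.90 ± 0.18 (SE).

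**Figure D1:**
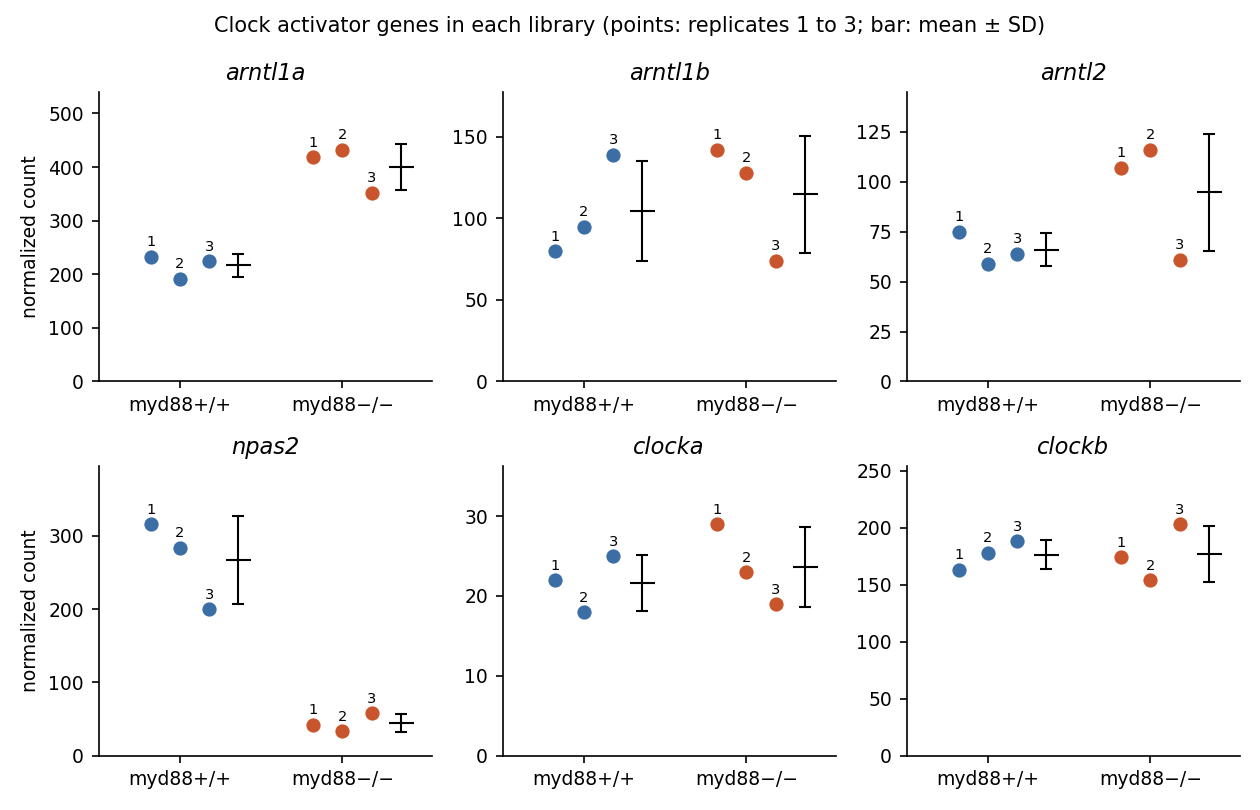
Normalised count of each of the 6 clock activator genes in every library, with 1 panel per gene, points for the 3 libraries of each genotype, and the genotype mean with its SD. The mutant points of npas2 (33 to 58) sit below all controls (200 to 316), those of arntl1a (352 to 432) sit above all controls (192 to 233), and the points of arntl1b, arntl2, clocka and clockb overlap between genotypes.

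Genes were called where the mean value exceeded 5, the adjusted p was under 0.05 and the fold change exceeded 1.5. By these criteria 2 of the 6 members were called, npas2 lower and arntl1a higher, beside 115 of 16383 genes tested, or 0.702%. The share of all genes called lower was 0.562% and the share called higher 0.140%. The values of the same 2 members did not overlap between genotypes, as was the case for 18.1% of all genes. Nothing is read from these counts, because the members were chosen with the contrast known. The member count fell to 1, npas2, without any single library other than myd88-/- replicate 3. The median log2 fold change over all genes tested was 0.0093.

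**Figure D2:**
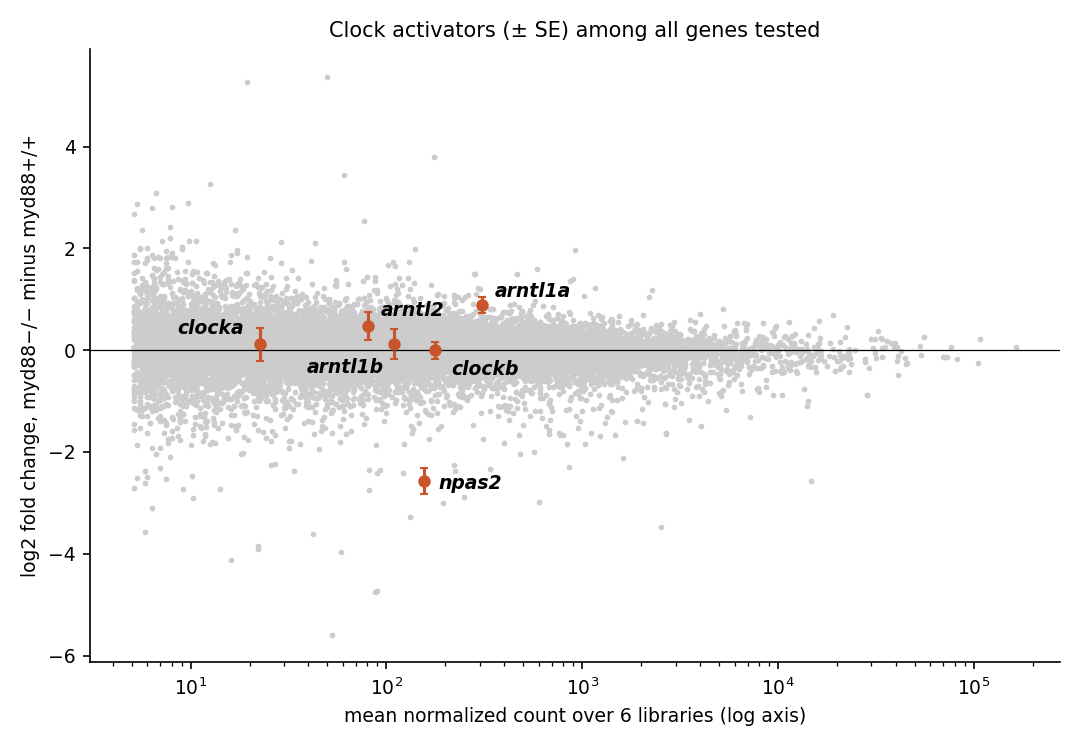
Log2 fold change (myd88-/- minus myd88+/+) against the mean normalised count over the libraries, on a log axis, for all 16383 genes tested, in grey, with the 6 clock activator genes named. The gene npas2 lies at -2.57 and arntl1a at 0.89, and arntl1b, arntl2, clocka and clockb lie between 0.00 and 0.47, within the cloud of genes at their level.

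The spread within a genotype was set against counting error, taken as that of a whole-number count of the same size. For clocka, with the lowest counts, the coefficient of variation was 16.2% in myd88+/+ and 21.3% in myd88-/-, and counting alone would give 21.5% and 20.6%. For clockb it was 7.14% and 13.9%, against 7.53% and 7.52% from counting. The libraries of one genotype thus differed by about as much as counting error for clocka, and for clockb in the controls. For npas2 the coefficients were 22.5% and 28.6% against 6.12% and 15.0% from counting, and for arntl1b they were 29.3% and 31.3% against 9.77% and 9.34%. The normalised values are not the reads themselves, so these counting errors are approximate, and they exclude variation between fish.

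The members were then summed by the side of the CLOCK:BMAL pair that they encode. Such sums weight long genes more, since exon lengths were not used here, and are compared only between libraries. The BMAL side, arntl1a with arntl1b and arntl2, summed to 388, 346 and 427 in myd88+/+ and to 667, 676 and 487 in myd88-/-. These sums did not overlap, and the mutant mean of 610.0 ± 107 (SD, n = 3) was 1.58 times the control mean of 387 ± 40.5. Most of the rise came from arntl1a, which made up 60.1%, 55.5% and 52.5% of the sum in the controls and 62.7%, 63.9% and 72.3% in the mutants.

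The CLOCK side, clocka with clockb and npas2, went the other way. It summed to 501, 480 and 413 in myd88+/+ and to 245, 210 and 280 in myd88-/-, with means of 465 ± 46.0 and 245 ± 35.0 (SD, n = 3), and was 1.90-fold lower in the mutants. Without npas2, the sum of clocka and clockb was 185, 196 and 213 in the controls and 203, 177 and 222 in the mutants, with overlapping ranges. The share of npas2 in the summed CLOCK side was 63.1%, 59.2% and 48.4% in myd88+/+ and 17.1%, 15.7% and 20.7% in myd88-/-. In counts, npas2 was above clockb in every control library, narrowly in myd88+/+ replicate 3 (200 against 188), and below it in every mutant library. Since the counts are not corrected for gene length, this is not an order of expression between the 2 paralogues.

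**Figure D3:**
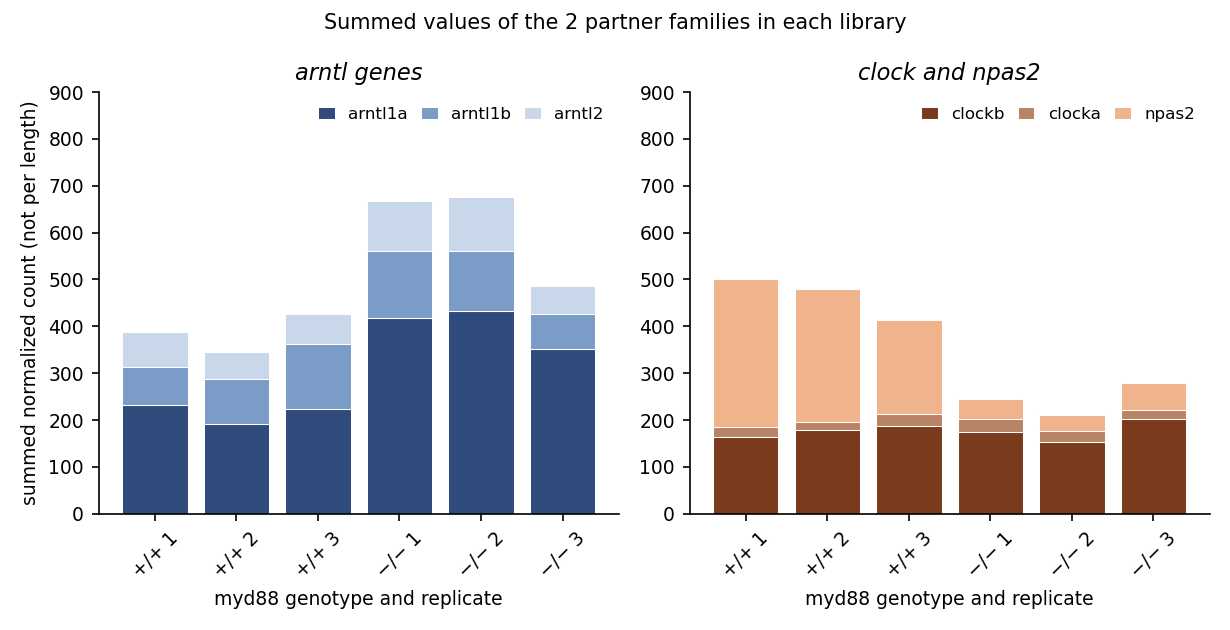
Stacked bars, starting at 0, of the summed normalised counts per library for the arntl genes (BMAL side) and for clocka, clockb and npas2 (CLOCK side). The arntl sums are 346 to 427 in myd88+/+ and 487 to 676 in myd88-/-, and the sums of clocka, clockb and npas2 are 413 to 501 and 210 to 280. On the CLOCK side the npas2 segment is the one that shrinks in the mutants, and on the BMAL side the arntl1a segment is larger in each mutant library than in any control.

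Ratios between members within a library are free of the scaling of that library. The ratio of npas2 to clockb was 1.94, 1.60 and 1.06 in myd88+/+ and 0.241, 0.214 and 0.286 in myd88-/-, with means 6.20-fold apart. The ratio of arntl1a to npas2 was 0.737, 0.676 and 1.12 in myd88+/+ and 9.95, 13.1 and 6.07 in myd88-/-, with means of 0.844 ± 0.241 and 9.70 ± 3.52 (SD, n = 3). Both ratios separated the genotypes, which restates the npas2 values above and is no further result. In both ratios, myd88-/- replicate 3 was the mutant library nearest to the controls. The ratio of the duplicates arntl1a and arntl1b was 2.91, 2.02 and 1.61 in the controls and 2.94, 3.38 and 4.76 in the mutants, where myd88-/- replicate 1 was close to myd88+/+ replicate 1.

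Profiles over the 6 libraries were compared for the 2 members whose log2 value ranged over at least 1. Likeness was the root-mean-square difference between log2 profiles, each centred on its own mean. The search covered 10624 other genes with a mean of at least 50, and left out all genes with a colon in the symbol. The closest gene to npas2 was klf9, which encodes a Krüppel-like transcription factor, at 0.31. It read 413, 544 and 354 in myd88+/+ and 44, 57 and 74 in myd88-/-. The next were zbtb16a, which encodes a BTB zinc finger transcription factor, at 0.33, and per2, a clock repressor, at 0.35. The counts of zbtb16a were 2672, 2689 and 2402 in the controls and 489, 421 and 1023 in the mutants, and those of per2 were 1399, 1457 and 1405 and then 289, 295 and 278. All 3 genes were low in every mutant library, as npas2 was, and klf9 and zbtb16a also had their highest mutant value in replicate 3.

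The closest gene to arntl1a was myo10, an unconventional myosin of filopodia, at 0.079. It read 136, 115 and 153 in myd88+/+ and 253, 285 and 218 in myd88-/-. The next were kif21b, a kinesin motor, at 0.12 and slc36a1, an amino acid transporter, at 0.12. None of the 3 is a core clock gene. None of them passed the criteria (limma, adjusted p = 0.0680 for myo10, 0.0587 for kif21b and 0.161 for slc36a1), whereas klf9, zbtb16a and per2 did. All were picked for a profile like that of the member, which largely sets the size of their genotype difference. Nothing is read from which of them passed. Among the members, the nearest to arntl1a was arntl2, 413th of the genes compared at 0.29, and arntl1b and clockb were at 0.50 each. These likenesses describe 6 libraries of 2 genotypes, so any gene that differed by a like amount between the genotypes would come near.

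**Figure D4:**
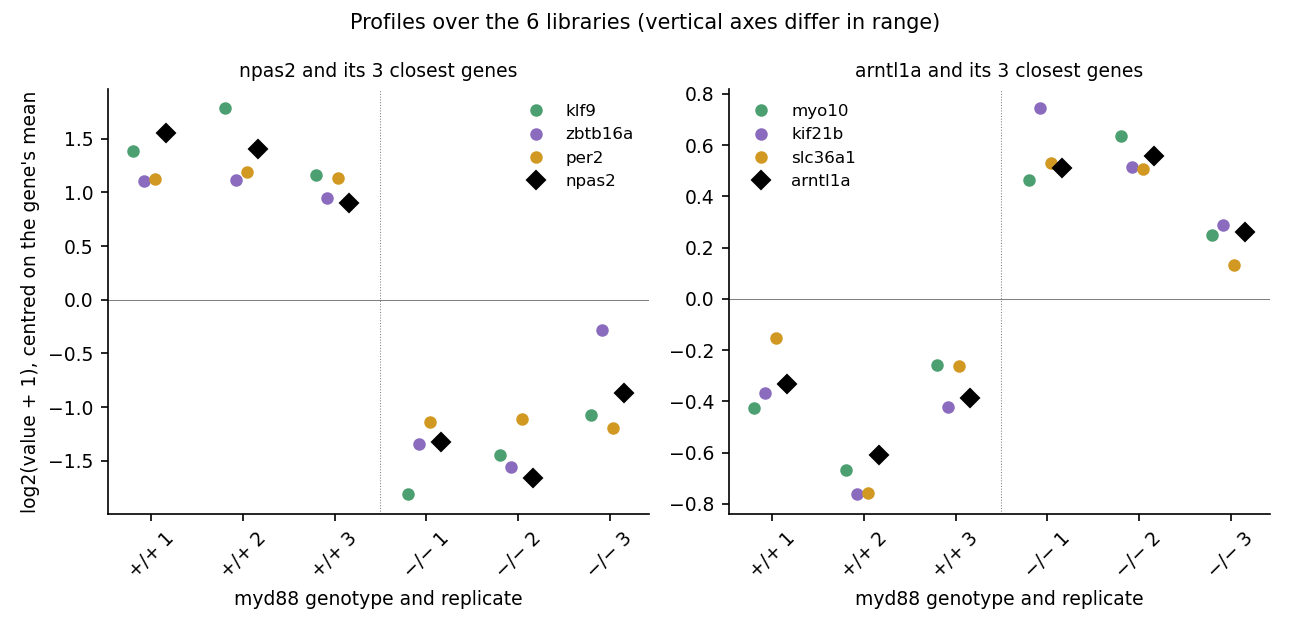
Centred log2(value + 1) in each of the 6 libraries for npas2 with its 3 closest genes (klf9, zbtb16a and per2) and for arntl1a with its own (myo10, kif21b and slc36a1). The npas2 set is high in the 3 myd88+/+ libraries and low in the 3 myd88-/- libraries, the arntl1a set is the reverse over a narrower range, and the vertical axes of the panels differ.

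Other genes were counted by role, with the same fit over all genes, in 5 lists of clock genes and 1 of the wider bHLH-PAS family. Of 84 genes tested in the 6 lists, 15 fell, against 0.562% of all genes, and 0 rose, against 0.140%. The lists were drawn up with earlier results of this contrast known. Their counts and p-values, here and below, are thus a description, and nothing is read from an excess over all genes. The 15 were 14 of 71 clock genes and 1 of 13 bHLH-PAS genes. At an unadjusted p under 0.05 the counts over the 84 were 25 lower and 4 higher. Of all 16383 genes tested, 2157 reached that level in either direction, and the counts at that level in each list below stand beside this share. The median log2 fold change of the 84 was -0.18, and 63 were below 0 and 21 above. The count of 15 fell to 6 without myd88+/+ replicate 2, was 8 without myd88-/- replicate 1 or myd88+/+ replicate 3, and was 19 without myd88-/- replicate 3. In other versions of the fit, described below, the count was 3 without an intensity trend and 9 with a replicate block.

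The list of period and cryptochrome genes, which holds the repressors that the activators drive, had the most calls. It was drawn up by gene name and also holds members of the family that are not such repressors, cry5 among them. Of 12 period and cryptochrome genes tested, 7 fell and 0 rose, 11 were below 0, and the median log2 fold change was -1.16. The largest decrease was that of cry5, known in zebrafish as a photolyase of the cryptochrome family, at -3.27 (limma, adjusted p = 0.00104), where control libraries read 227 to 253 and mutant libraries 20 to 31, and its gene overlaps foxred1 on the other strand. Next came the period gene per1a, which read 321, 348 and 371 in the controls and 34, 34 and 66 in the mutants (limma, adjusted p = 0.0021), and then per2, at -2.30 ± 0.11 (SE, limma, adjusted p = 1.35e-04). The cryptochrome genes cry1b (-1.34) and cry2 (-1.18) and the period gene per3 (-1.29) also fell.

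Among the nuclear receptors that act on arntl transcription, 2 of 8 tested fell and 0 rose, with 5 below 0 and a median of -0.29. The REV-ERB gene nr1d1 read 1090, 1355 and 1173 in myd88+/+ and 519, 242 and 424 in myd88-/-, at -1.67 ± 0.25 (SE, limma, adjusted p = 0.0232). The related nr1d2a read 2334, 2623 and 1697 and then 751, 419 and 1016, also at -1.67 (adjusted p = 0.0489). Both were lower in 3 of 3 mutant libraries than in every control. A further REV-ERB gene, nr1d2b, read 2180, 1977 and 2049 in the controls and 2201, 1915 and 2424 in the mutants, at 0.07 ± 0.13 (SE), with overlapping genotypes. None of the tested ror genes passed the criteria, in either direction. At an unadjusted p under 0.05 the whole list had 3 genes lower and 1 higher.

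Output transcription factors under E-box and D-box control had 5 of 12 lower and 0 higher, with a median of -0.84 and 8 lower and 1 higher at an unadjusted p under 0.05. The repressors bhlhe41 (-1.66) and ciarta (-1.19), the D-box activators dbpb (-1.46) and tefa (-1.31), and nfil3-6 (-1.50), of a family of D-box repressors, were the genes that fell. Their limma adjusted p-values ran from 0.00277 for tefa to 0.0489 for nfil3-6. Among 16 kinases and ubiquitin ligases of the clock 0 passed the criteria, with 1 lower and 2 higher at an unadjusted p under 0.05 and a median of -0.13. Among 23 coactivators and chromatin partners 0 passed, with 1 lower and 0 higher at that level and a median of -0.07.

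The wider bHLH-PAS family, to which the members belong, had 1 of 13 lower and 0 higher, with 2 lower and 0 higher at an unadjusted p under 0.05 and a median of -0.34. The gene called was hif1al, of the hypoxia-inducible factor group, at -1.49 ± 0.18 (SE, limma, adjusted p = 0.00829), where the controls read 5119, 6203 and 6440 and the mutants 1869, 1789 and 2758. For arnt, the shared partner of many proteins of this family, the log2 fold change was -0.34 ± 0.21 (SE), and for arnt2 it was -0.06 ± 0.18. Neither passed the criteria.

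**Figure D5:**
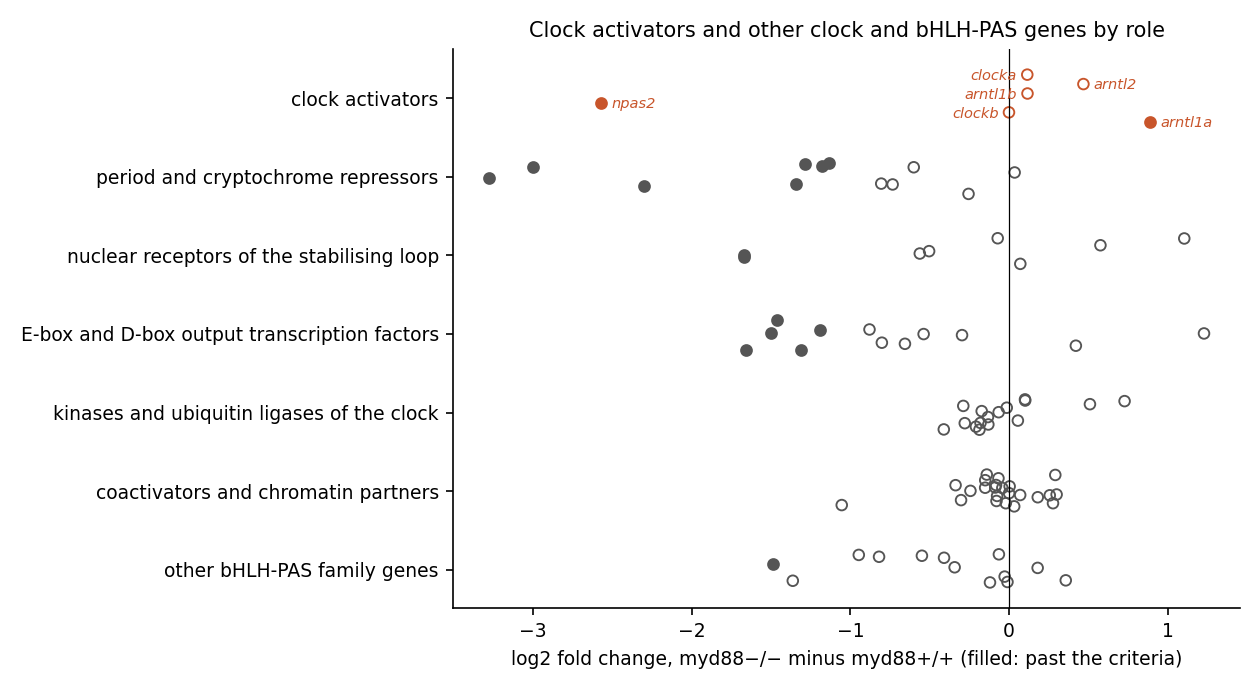
Log2 fold change (myd88-/- minus myd88+/+) of each gene tested, 1 point per gene, for the clock activators and 6 further lists (5 of clock genes by role and 1 of the wider bHLH-PAS family), where filled points passed the criteria and the vertical position within a list is only spacing. Period and cryptochrome genes reach -3.27, npas2 lies at -2.57 and arntl1a at 0.89, and no kinase, ligase or coactivator passed.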

How the data were processed

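RNA-seq was run on sorted krt4:EGFP+ endocardial cells, in 3 libraries per genotype, with genotypes taken from the sample labels. Per the study's methods and the submitters' processing notes, which give the version of Trimmomatic, reads were trimmed (Trimmomatic 0.39), aligned to danRer11 with Ensembl annotation (STAR 2.7.10a), filtered for duplicate, multimapping, ribosomal and mitochondrial reads (Picard 3.0.0) and counted over exons without reads shared by several genes (featureCounts 2.0.4). Whether counting used strand is not given in the sources used here. The values deposited by the authors are a score: counts divided by DESeq2 1.36.0 size factors and rounded to whole numbers, so read depth is unknown and no count model was run. All 6 value columns belonged to these samples. The columns of the authors' own comparison, with fold changes and p-values, were not used.

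A linear model of genotype with an intensity trend (limma 3.58.1 in R 4.3.3) was fitted to log2(value + 1) over genes with a mean above 5, with Benjamini-Hochberg adjustment over 16383 genes. All p-values and SEs of log2 fold changes rest on the spread between pools, with the variance of each gene drawn toward that of genes at a similar level. Alternatives were pseudocounts of 0.5 and 5, no filter, a minimum mean of 20, no minimum fold change, equal totals, quantile normalization, no intensity trend, a replicate block, and each library left out.

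Members and gene lists were chosen with earlier results of these data known. Named genes were all members, in other lists those past the criteria (at most the 6 with the largest fold change), the 3 genes closest in profile to each member with a log2 range of at least 1, and myd88. Coordinates are those of the deposited table. No sequences or exon lengths of the build were used here.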

Additional observations from a re-analysis of the deposited data

How the results depend on the processing

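The log2 fold changes of all 6 members kept their side of the criteria under pseudocounts of 0.5 and 5, other filters and other scalings. The gene npas2 was called lower in all 14 alternative fits. These fits reuse the libraries of the contrast known when the members were chosen, so their calls only describe how the values depend on processing. Without the intensity trend, 25 genes in place of 115 passed the criteria, 3 in place of 15 other clock and bHLH-PAS genes and 1 in place of 2 members. Leaving out each library in turn gave 28 to 255 genes, 6 to 19 other clock and bHLH-PAS genes and 1 to 2 members, with the lowest number of genes without myd88+/+ replicate 2 and the highest without myd88-/- replicate 3. Values are rounded and carry no read depth, which limits clocka most, with a mean of 21.7 and 23.7.

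Replicate numbers are shared between the genotypes, but the labels do not tie them to a batch or family. Deviations from the genotype means of same-numbered libraries correlated at -0.12, 0.13 and -0.137 across genes, and those of differently numbered libraries at -0.18 to 0.247. With 3 libraries per genotype, such values cannot decide whether same-numbered libraries shared a batch or family. With a replicate block, 45 genes, 9 other clock and bHLH-PAS genes and 1 member, npas2, passed the criteria.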

Other observations

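Of the 84 genes tested in the clock and bHLH-PAS lists, 32 did not overlap between the genotypes, against 18.1% of all genes, and 17 of these missed the criteria. As the lists were chosen with earlier results known, nothing is read from this count. The following were picked out after their values were seen. The count of fbxl3a, whose mammalian counterpart marks cryptochromes for degradation, was 407, 382 and 317 in myd88+/+ and 555, 580 and 696 in myd88-/-, a log2 fold change of 0.73 ± 0.15 (SE, limma, adjusted p = 0.0841). The count of nampta, whose mammalian counterpart makes a precursor of NAD and is itself a clock output, was 190, 197 and 144 in the controls and 87, 70 and 97 in the mutants, at -1.05 ± 0.21 (SE, limma, adjusted p = 0.0664). In the nfil3 family, where nfil3-6 fell, nfil3-5 read 120, 148 and 260 in the controls and 407, 559 and 263 in the mutants, at 1.23 ± 0.33 (SE, limma, adjusted p = 0.165).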
